A study of Mus musculus with 13 samples.

Results

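High-globin erythroid cells are red cell precursors of the mouse fetal liver in which adult globin messages take up a large share of all RNA counted. They were chosen by measured values in 1 single-cell library. An erythroid cell had at least 200 genes detected, at least 10 of every 10000 counts from the sum of 10 erythroid genes (Gata1, Alas2, Ank1, Rhag, Rhd, Slc4a1, Car2, Ermap, Tspan33 and Cpox), and fewer than 10 of every 10000 counts from the macrophage genes C1qa, C1qb and C1qc. The share of each cell's counts that came from Hba-a1, Hba-a2, Hbb-bs and Hbb-bt was then computed, and cells at or above the median share of the erythroid cells are the high-globin cells. This gave 290 high-globin cells among 580 erythroid cells and 3096 cells in all. The other 290 erythroid cells, called low-globin cells here, and 1663 cells with a C1q sum of at least 10 per 10000 counts, called C1q cells, serve for comparison.

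The study asked what EKLF (the product of Klf1, an erythroid Krüppel-like factor) does in F4/80+ cells of the fetal liver, where macrophages sit at the centre of erythroblastic islands. Bulk RNA-Seq was performed on F4/80+ cells sorted at E13.5 from wild type (EKLF+/+) and EKLF-null (EKLF-/-) embryos, and on the EKLF/GFP+ and EKLF/GFP- fractions of F4/80+ cells from pEKLF/GFP embryos, in which GFP is driven by the EKLF promoter and EKLF is otherwise wild type. Each of these 4 groups has 3 libraries. The single-cell library holds wild type E13.5 F4/80+ cells pooled from 2 littermate embryos of a single mother and picked with magnetic beads in a repeated selection, in the presence of an Icam4/αv inhibitor peptide that loosens erythroid cells from macrophages.

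All samples carry the strain label C57BL/6, whereas the study's methods place the EKLF-null allele in a 129S4/SvJae background. RNA of the EKLF/GFP+ libraries alone was purified with the Agilent Nanoprep kit and all other bulk RNA with Trizol, so kit and fraction cannot be told apart in that comparison. The paper reports lower RNA integrity for EKLF/GFP+, from low cell numbers, than for EKLF+/+ and EKLF-/-. It states no integrity value for EKLF/GFP-. The bulk replicates are described as biological triplicates. The p-values below set the difference between groups against the spread between these samples, taken as unpaired. With 1 single-cell library there are no replicates and no tests between groups of cells. Intervals given for single-cell values are exact 95% Poisson intervals for levels and exact 95% binomial (Clopper-Pearson) intervals for shares of cells, and they cover counting error only.

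Erythroid maturation runs from dividing progenitors through hemoglobinizing erythroblasts to a cell that expels its nucleus. Along the way the cell builds heme in the mitochondrion, imports iron through the transferrin receptor, lays down its membrane skeleton, stops making ribosomes and clears its organelles. In the mouse fetal liver, definitive erythroblasts make adult alpha- and beta-globin, while primitive red cells born in the yolk sac circulate through the same organ and carry the embryonic chains Hbb-y, Hbb-bh1 and Hba-x.

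The adult globin share that selected the high-globin cells had a median of 67.1% of a cell's counts, and a range of 20.4% to 87.3% between the 5th and 95th percentiles. In 200 of the 290 cells adult globins made up at least 50% of all counts, and in 72 cells at least 80%. The median share was 1.15% in low-globin cells and 0.470% in C1q cells. Because these shares defined the groups, they describe the selection and are not a finding. The median that divided the erythroid cells lay at 16.8%. The nearest cells inside had shares of 16.79%, 16.86% and 17.16%, and the nearest outside had 16.76%, 16.69% and 16.63%. Within 2 percentage points of the boundary there were 8 cells inside and 13 outside. Whether the high-globin cells form a separate type was not tested. A further 133 cells met the erythroid sum but had too many C1q counts, and 18 of them had a share above the boundary. Another 35 cells had such a share with few C1q counts but did not reach the erythroid sum.

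**Figure D1:**
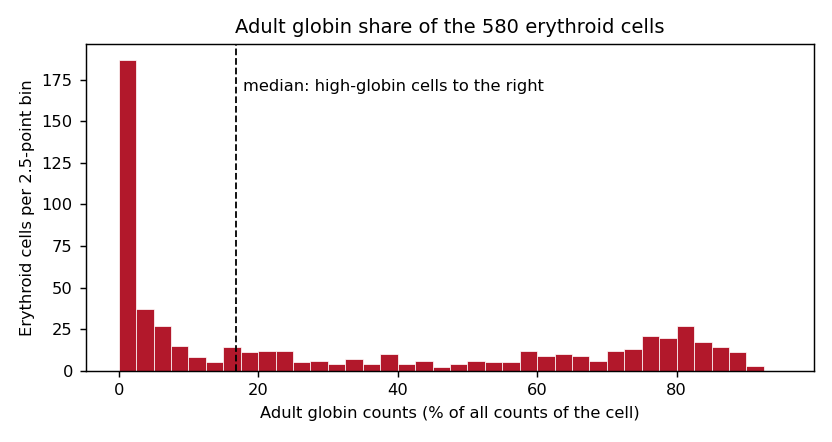
Number of erythroid cells (vertical axis) by adult globin share of all counts in percent (horizontal axis, bins of 2.5 points) for the 580 erythroid cells. The dashed line marks the median of 16.8%. Most low-globin cells sit in the lowest bins, and the 290 high-globin cells spread from the line to 91.5%.

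High-globin cells held fewer counts than low-globin cells, above all outside globin. Their median was 19894 counts per cell (range 3439 to 92310), against 43468 in low-globin cells and 14099 in C1q cells. Without globin counts, the medians were 6684 in high-globin and 41873.5 in low-globin cells. Fewer genes were also seen per cell. The number of genes detected had a median of 2141, against 5634.5 in low-globin cells and 3798 in C1q cells. When every cell was thinned to 5000 counts, high-globin cells showed a median of 826 genes in the 289 cells deep enough, low-globin cells 1787 in 279 cells and C1q cells 1986 in 1635 cells. Thinning kept globin counts, so fewer counts were left for other genes in high-globin cells, and the share that chose the cells bears directly on this number. Mitochondrially encoded transcripts took a median of 1.41% of all counts in high-globin cells and 4.09% in low-globin cells. Globin is part of that total, so a higher globin share lowers this value by itself. In the RNA outside globin, ribosomal protein genes took 16.9% of non-globin counts, against 32.0% in low-globin cells.

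Since globin takes most counts in these cells, the scale decides how other genes compare. Levels below are counts summed over the cells of a group per 10000 non-globin counts, unless another scale is named. Over 6041 genes with at least 200 counts in the erythroid cells, globins left out, the median ratio of high-globin to low-globin level was 0.850 on this scale, a log2 value of -0.23. The median was 0.373 (log2 -1.42) per 10000 of all counts and 0.201 (log2 -2.31) in counts per cell. On the non-globin scale 650 of the 6041 genes (10.8%) were at least 2-fold higher and 963 (15.9%) at least 2-fold lower in high-globin cells. These shares come from the contrast that chose the cells and serve only as the background for the list counts that follow.

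Among the globin messages of high-globin cells, Hbb-bs was the most abundant at 21.0% of all counts. Hba-a1 followed at 19.8%, Hbb-bt at 10.2% and Hba-a2 at 5.59%. Hbb-bs and Hbb-bt code for adult beta chains and Hba-a1 and Hba-a2 for adult alpha chains. The copies are nearly identical in sequence, so the split of counts between Hba-a1 and Hba-a2, and between Hbb-bs and Hbb-bt, is uncertain. The ratio of adult alpha to adult beta counts is less affected by that split, and was 0.815 over all high-globin cells, with a median of 0.789 per cell and 0.635 to 1.09 between the 5th and 95th percentiles. Low-globin cells had 0.970, with a median of 1.15 per cell and 0.639 to 3.26 between the same percentiles. Counts per molecule can differ between genes, so the ratio compares groups and does not give chain numbers. Minor genes of the same loci took little of the counts. Hbq1b, an alpha-like gene of unclear function, took 0.00824% of counts, and Hbb-bh2 had no count in 6534830 counts.

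The cell type label was checked with markers that the choice of cells did not use. Hemgn, a nuclear regulator of erythroid genes, stood at 13.0 per 10000 non-globin counts (95% interval 12.6 to 13.4) in high-globin cells, 2.46 in low-globin cells and 0.127 in C1q cells. For Klf1 the levels were 2.79 (2.60 to 3.00), 1.52 and 0.0611. These markers are as the erythroid label asks. As description only, since it is among the selecting genes, Slc4a1 (band 3, the anion exchanger) was counted in 97.6% of high-globin cells after thinning to 5000 counts, against 39.4% of low-globin cells and 14.9% of C1q cells. Before thinning the shares were 99.3%, 71.7% and 28.4%.

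RNA of other cell types was present at low level. The 20 macrophage markers summed to 12.5 (12.1 to 12.9) in high-globin cells, 4.87 in low-globin cells and 116 in C1q cells, and C1qb was the most abundant. All 20 had at least 1 count in high-globin cells, although C1q itself was limited by the choice of cells. Measured against C1q cells, many of these markers stood at similar fractions in high-globin cells. Adgre1, which encodes F4/80, stood at 8.61% of its C1q cell level, Csf1r at 11.4%, Vcam1 at 10.6% and Timd4 at 8.79%. In counts per cell, macrophage markers came to 12.02 in high-globin, 19.8 in low-globin and 206 in C1q cells. Hepatoblast markers, led by Afp, summed to 4.29 per 10000 non-globin counts in high-globin cells, 1.87 in low-globin cells and 5.56 in C1q cells. Macrophage and hepatoblast RNA was thus itself higher in high-globin than in low-globin cells on this scale, at ratios of 2.57 and 2.30 that turned to 0.607 and 0.544 per cell. Monocyte and neutrophil markers, led by S100a8, summed to 6.35, against 5.60 in low-globin and 9.08 in C1q cells. The part of such RNA in the levels below was not tested.

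Heme synthesis genes differed in the same direction throughout. All 8 enzymes of the pathway, from Alas2 to Fech, were at least 2-fold higher in high-globin cells. Their summed level was 83.8 (82.8 to 84.9) against 24.0, a ratio of 3.50. That ratio was 1.53 per 10000 of all counts and turned to 0.826 in counts per cell. Alas2 and Cpox of this list are selecting genes, and their values enter the sum and the count as description. Alas2, the erythroid first enzyme, is a selecting gene and differed most, with 13.9 (13.4 to 14.3) against 0.294, a ratio of 47.2 that was 11.2 per cell. After thinning to 5000 counts it was counted in 90.7% of high-globin cells, 12.2% of low-globin cells and 5.14% of C1q cells, and before thinning in 99.7%, 44.8% and 13.2%. Fech, which inserts iron to finish the heme ring, had 11.5 against 1.97. Enzymes of the middle of the pathway differed less. Cpox, also a selecting gene, had 17.4 against 8.03, and its ratio of 2.17 turned to 0.513 per cell.

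Iron genes did not differ as a block. Slc25a37 (mitoferrin 1), the carrier that brings iron into the mitochondrion, stood at 28.1 (27.4 to 28.7) in high-globin cells and 1.75 in low-globin cells, a ratio of 16.0 that was 3.79 per cell. Ncoa4, the receptor that takes ferritin to the lysosome, had a ratio of 9.77 and 2.31 per cell. Tfrc, the transferrin receptor, had 10.05 against 3.395, a ratio of 2.96 that turned to 0.699 per cell. The ferritin chains Fth1 and Ftl1 had ratios of 2.59 and 3.14, and 0.613 and 0.741 per cell. Of 13 iron genes, 6 were at least 2-fold higher and 7 lay between. Among the latter, the iron sensing proteins Aco1 and Ireb2 had ratios of 0.520 and 0.754. Of 8 heme regulation genes with enough counts, 7 were at least 2-fold higher. Eif2ak1, the heme-regulated kinase that stops globin translation when heme is short, had 2.21 against 0.536, and its ratio of 4.12 was 0.975 per cell.

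Membrane and skeleton genes were higher almost throughout. Of 24 with enough counts, 23 were at least 2-fold higher and 1 at least 2-fold lower, and the list summed to 112 (111 to 113) against 24.0, a ratio of 4.66 that was 2.04 per 10000 of all counts and 1.10 per cell. Slc2a1, the glucose transporter, had the highest ratio of the list, 17.6, from 4.40 against 0.2503. Slc4a1, which led the list by level, had 23.2 (22.7 to 23.8) against 1.93. It is a selecting gene, as are Ank1, Rhag, Rhd and Ermap of this list, and these values enter the sum and the count as description. Dmtn (dematin, an actin bundler) had a ratio of 9.44, Epb42 of 8.06 and Epb41 of 7.88, and for all of these the level per cell was higher as well. Cd47, the surface signal that restrains phagocytosis, had a ratio of 2.39 that turned to 0.565 per cell. Icam4, an adhesion molecule of erythroblasts in islands, had 2.43, which turned to 0.575 per cell. Atp1b2, a sodium pump subunit, was the gene at least 2-fold lower, with a ratio of 0.493.

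Genes of terminal maturation, chosen for organelle clearance, chromatin condensation and message stability, had a larger summed ratio than the lists of heme, iron and membrane genes above. Of 20 with enough counts, 19 were at least 2-fold higher, none was 2-fold lower and 1, Ubb, lay between. The list summed to 79.5 (78.5 to 80.6) against 16.0, a ratio of 4.96 that was 2.17 per 10000 of all counts and 1.17 per cell. Tent5c, a poly(A) polymerase, stood at 6.59 (6.29 to 6.90) against 0.179. Bcl2l1, the survival factor Bcl-xL, stood at 3.53 against 0.132. Tmcc2 had a ratio of 22.3. Xpo7, a nuclear exporter used during chromatin condensation, had a ratio of 18.8 and the ubiquitin ligase Ube2o one of 14.8. Each of these 5 was also higher per cell, at 8.70-, 6.35-, 5.27-, 4.44- and 3.49-fold for Tent5c, Bcl2l1, Tmcc2, Xpo7 and Ube2o. Bnip3l, which marks mitochondria for removal, differed less, at 6.56 against 1.41 and 1.10-fold per cell.

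Transcription factors did not move as a block. Of 19 erythroid factors, 8 were at least 2-fold higher in high-globin cells, 2 at least 2-fold lower and 9 between. E2f2, Sox6, Foxo3 and Hemgn had ratios of 10.1, 6.96, 6.15 and 5.28, each also above 1 per cell. Klf1 and Gata1 lay between, with ratios of 1.83 and 1.52 that turned to 0.433 and 0.358 per cell. Gata1 is a selecting gene, so its values and its place in the count are description. Bcl11a, a repressor of embryonic globin genes, stood at 0.384 against 1.86, a ratio of 0.207. Nr3c1, the glucocorticoid receptor of progenitors, had a ratio of 0.432.

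Progenitor genes were depleted singly and not as a list. Of 7 early erythroid genes with enough counts, 2 were at least 2-fold higher, 3 at least 2-fold lower and 2 between, and the summed ratio of 1.78 was 0.780 of all counts and 0.420 per cell. Nfe2, a factor that acts late as well as early in red cells, and Lyl1 were the higher genes. The lower genes were progenitor regulators. Kit, the stem cell factor receptor, had 2 counts in all high-globin cells together and 297 in low-globin cells, a ratio of 0.0285. Myb had 9 counts against 776 and Myc 17 against 380. Cdk6, the cyclin D partner that falls away late in erythropoiesis, had 22 counts against 1068.

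Erythropoietin signalling was also mixed, with 3 genes at least 2-fold higher, 3 at least 2-fold lower and 1 between. Pim1, a kinase induced by the receptor, had 6.12 against 0.565. Epor itself had 1.25 (1.12 to 1.39) against 0.825, a ratio of 1.51 that turned to 0.358 per cell. Stat5a, Stat5b and Podxl had ratios of 0.105, 0.459 and 0.248.

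Cell cycle genes divided into mitosis and S phase. The 24 mitosis genes summed to 85.2 (84.2 to 86.3) in high-globin cells and 36.0 in low-globin cells, a ratio of 2.37 that was 1.04 of all counts and turned to 0.559 per cell. Of these genes, 8 were at least 2-fold higher, led by Nusap1, Ube2c, Mki67 and Cenpf with ratios of 4.09, 3.99, 3.95 and 3.54, and 16 lay between. The 24 S phase genes summed to 47.8 (47.0 to 48.6) against 44.9, a ratio of 1.06 that turned to 0.466 of all counts and 0.251 per cell. It also turned below 1 when cells were weighted equally, at 0.765, when the erythroid sum had to reach 20, at 0.952, and when cells above the 67th percentile of globin share were compared with the rest, at 0.568. No direction is given for S phase on that account. Within it, Rrm2 was at least 2-fold higher, whereas Dut and Hells were at least 2-fold lower, Dut with 2.37 against 6.69.

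Cell cycle inhibitors had a summed ratio of 5.07 that was 1.199 per cell, with 4 of the 5 that had enough counts at least 2-fold higher. Cdkn2d, an inhibitor of the cyclin D kinases, stood at 1.77 (1.62 to 1.94) against 0.0942. Among cyclin D genes and their kinases, Ccnd3 was higher with a ratio of 3.46 that turned to 0.818 per cell. Ccnd2, Cdk4 and Cdk6 had ratios of 0.210, 0.342 and 0.0871.

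Ribosome production was the group most reduced. Of 11 ribosome biogenesis genes, 10 were at least 2-fold lower in high-globin cells on the non-globin scale and 1, Ubtf, lay between. They summed to 20.2 (19.6 to 20.7) against 88.8, a ratio of 0.227, and of 0.0994 and 0.0536 on the other scales. Npm1 had 8.60 against 50.9 and Ncl 6.14 against 21.5. Of 13 nuclear and chromatin genes 2 were higher, 1 was lower and 10 were between.

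Red cell enzymes differed from one to the next. Of the antioxidant enzymes, Gpx1 had 90.0 against 18.5 and Prdx2 90.95 against 23.5, ratios of 4.87 and 3.88, the latter turning to 0.916 per cell. Bpgm, which makes the 2,3-bisphosphoglycerate that lowers the oxygen affinity of hemoglobin, had 4.47 against 0.370, a ratio of 12.1 and of 2.86 per cell. The glycolytic genes Gapdh, Pgk1, Aldoa and Ldha had ratios of 0.883, 0.796, 0.622 and 0.370. In all, 8 of 18 enzymes with enough counts were at least 2-fold higher, 1 was lower and 9 were between.

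Beyond the fixed lists, the 15 genes with the highest ratio included Slfn14, Fn3k, Runx1t1, Grap2 and Fam214b. Slfn14, a nuclease that degrades ribosomes and is known in platelets and red cells, had 297 counts against 26, a ratio of 48.3. Fn3k (fructosamine 3-kinase, which removes sugar from glycated proteins such as hemoglobin) had 283 against 26, a ratio of 46.0. For Runx1t1 the counts were 358 against 37, and for Grap2, an adaptor protein, 326 against 35. Each was higher per cell too. Names of predicted genes or pseudogenes made up 8 of these 15, led by Gm8430, and 16 of the highest 50. Pseudogenes share sequence with their parent genes and their counts are uncertain. The lowest ratios included those of Hdac7, Kit, Ydjc, Myb, Cdk6, Prelid2 and Ppif. Hdac7 had 1 count against 219 and Ppif, a mitochondrial cyclophilin, 14 against 632.

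To see how high-globin cells vary among themselves, they were divided into 4 bins of globin share with 73, 73, 72 and 72 cells. The bins ran from 16.8% to 39.9%, from 40.0% to 67.4%, from 68.5% to 80.0% and from 80.3% to 91.5%. Genes detected after thinning to 5000 counts, globin included, had medians of 1411, 969, 674 and 476.5. Non-globin counts per cell had medians of 20411, 8355, 5135.5 and 2850. Since the share orders the bins, these values and all below are description. The lowest bin gave 1523770 of the 2785430 non-globin counts, so the summed levels above lean toward the least globin-rich members.

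The terminal maturation list as a sum was higher in each successive bin on the non-globin scale, though not every member was. It stood at 28.7, 56.7, 176 and 347, and in counts per cell at 59.9, 51.8, 94.9 and 99.6. Tent5c stood at 0.840, 3.90, 15.2 and 41.5, with 1.75, 3.56, 8.21 and 11.9 counts per cell. The levels of Alas2 were 4.21, 14.1, 29.2 and 55.2, with 8.79, 12.9, 15.8 and 15.8 counts per cell. Whole pathways were less steep across the bins than these genes. Heme synthesis as a whole had 58.3, 97.7, 130.1 and 140.0, and membrane genes had 69.3, 130.4, 199 and 202. On that scale both lists differed little between the upper bins, but in counts per cell they were lower in each successive bin, with 122, 89.3, 70.2 and 40.1 for heme synthesis and 145, 119, 107 and 58.0 for membrane genes. Single maturation genes such as Xpo7 (0.735, 1.98, 17.8 and 38.0) and Tmcc2 (1.63, 5.50, 33.9 and 59.4) differed widely between the lowest and the highest bin.

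Some other genes peaked inside the range on the non-globin scale. Mitosis genes stood at 71.4, 99.9, 133 and 49.9, and Mki67 at 13.53, 23.7, 29.1 and 11.1. In counts per cell the mitosis list went down from bin to bin, with 149, 91.3, 71.8 and 14.3. Erythroid factors as a list had 30.8, 56.1, 65.2 and 44.3, but 64.2, 51.3, 35.1 and 12.7 counts per cell. Single factors took different courses. Hemgn had 9.09, 19.9, 21.1 and 4.12. Klf1 had 2.28, 3.45, 3.92 and 2.33, and Gata1 1.44, 1.87, 2.06 and 0.920. In counts per cell Klf1 was lower from bin to bin, with 4.77, 3.15, 2.11 and 0.667. On the other hand E2f2, at 1.67, 4.35, 6.21 and 10.5, and Foxo3, at 0.893, 2.01, 3.92 and 4.84, were highest in the most globin-rich cells on the non-globin scale, but lowest there in counts per cell, with 3.49, 3.97, 3.35 and 3.00 for E2f2 and 1.86, 1.84, 2.11 and 1.39 for Foxo3. Tfrc had 8.63, 12.8, 12.5 and 7.02. The most globin-rich cells thus held lower levels of Hemgn, Klf1 and Gata1, of the transferrin receptor and of mitosis genes than the bin before them, on the non-globin scale.

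S phase genes were lower in each successive bin, at 59.8, 48.5, 19.0 and 10.8, and at 125, 44.3, 10.2 and 3.08 counts per cell. Hmgb2, a chromatin protein of dividing cells, held 14.6, 14.7, 14.5 and then 3.38. Ribosome biogenesis stood at 26.2, 13.1, 12.7 and 12.2, and was lower at each step in counts per cell, with 54.7, 11.95, 6.87 and 3.49. The near constant levels of the upper bins thus hold on the non-globin scale only. Ribosomal protein genes took medians of 31.4%, 21.4%, 11.9% and 11.6% of non-globin counts.

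RNA of other cell types took a larger place as non-globin counts shrank. Macrophage markers stood at 6.61, 14.6, 24.5 and 26.9 per 10000 non-globin counts, but at 13.8, 13.3, 13.2 and 7.71 counts per cell. Hepatoblast markers stood at 2.42, 3.96, 6.75 and 14.6, and at 5.05, 3.62, 3.64 and 4.17 counts per cell. Their part in the levels of the other genes was not tested.

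**Figure D2:**
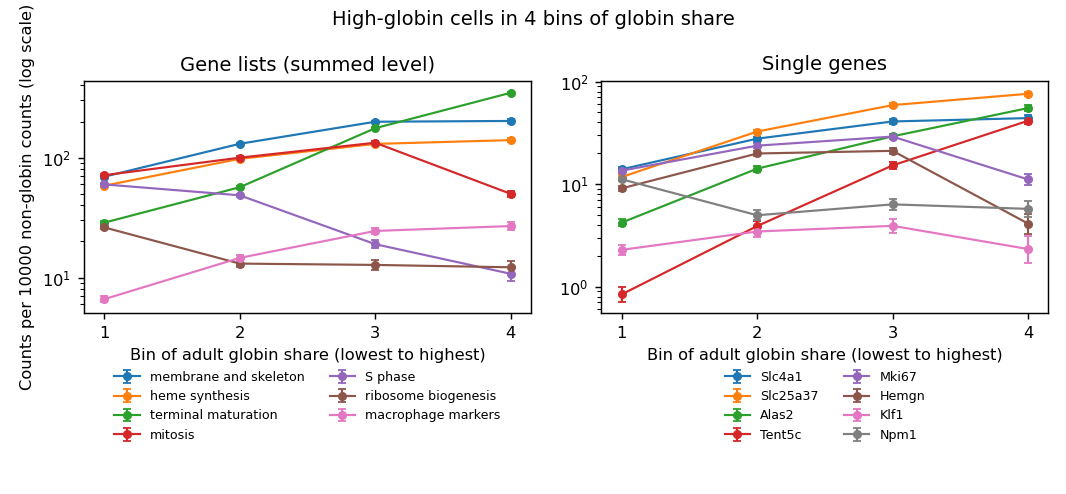
Level in counts per 10000 non-globin counts (log scale) of 7 gene lists (left) and 8 genes (right) in the high-globin cells divided into 4 bins of adult globin share, lowest to highest. Points are counts summed over the cells of a bin and bars are exact 95% Poisson intervals. Terminal maturation reached 347 in the highest bin, mitosis peaked at 133 in the bin before it, and S phase was at 10.8 in the highest.

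A few high-globin cells carried embryonic globins. In 7 of the 290 cells (2.41%, interval 0.976% to 4.91%) Hbb-y and Hbb-bh1 made up at least 10% of beta-like globin counts. Their shares were 99.2%, 91.3%, 87.4%, 87.4%, 87.1%, 82.5% and 36.8%, so that 6 were mainly embryonic and the last was mixed, with 40878 counts and 3345 genes detected. These 7 cells gave 91.1% of the Hbb-y and Hbb-bh1 counts and 93.3% of the Hba-x counts of all high-globin cells. Over all high-globin cells the embryonic share of beta-like counts was 1.83%, and without them it was 0.167%. Among the other members the median was 0.0504% and the highest 6.82%. Of the alpha-like counts, Hba-x made up 17.7% in the 7 cells and 0.0370% in the others. Adult alpha genes supplied most alpha-like counts in both. Embryonic globin counts were not particular to high-globin cells. The pooled embryonic share of beta-like counts was 1.10% in low-globin cells and 17.3% in C1q cells. The median per cell was 2.38% in low-globin and 5.88% in C1q cells, against 0.0516% in high-globin cells. These medians rest on few embryonic counts. Hbb-y had a median of 5 counts per cell in low-globin, 2 in C1q and 3 in high-globin cells. Hbb-bs had medians of 75.3, 23.3 and 4696 in the same order. Adult counts enter the share and chose the high-globin cells, so a higher globin share lowers it by itself.

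These 7 cells differed from the other members outside the globin loci as well, although they hold only 36845 non-globin counts, of which the mixed cell gave more than any other, so the pooled levels lean on it. All of them lie in the lower bins of globin share, 4 in the lowest and 3 in the next, and for Slc25a37, Tmcc2 and Xpo7 their levels are within or near the range of those bins, so these genes set them apart from all other members but not from members of like share. Fth1 stood at 287 (270 to 305) per 10000 non-globin counts against 147, and Ftl1 at 197 (183 to 212) against 94.0. Slc25a37 stood at 13.3 (9.84 to 17.6) against 28.3 and Tmcc2 at 2.44 (1.12 to 4.64) against 11.4. Klf1 had 2 counts, or 0.543 (0.0657 to 1.96), against 2.82. Xpo7 had 2 counts as well, against a level of 6.25 in the other members. Bcl11a had no count in the 7 cells, which with 36845 counts allows a level of up to 1.00 at its upper 95% bound, and 0.389 in the others, so no difference was detectable at this depth. Car2, a selecting gene given as description only, stood at 47.2 (40.5 to 54.8) and 44.5.

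The promoters of the globin genes that fill or mark these cells are shown because EKLF, the factor deleted in the bulk comparison below, is known for its binding to CACCC elements of beta-like globin promoters. The windows hold the 250 bases before each gene's start in RefSeq GRCm38.p6, read 5′ to 3′ on the gene's strand. Capitals mark CACCC in the reading direction. Hbb-bs lies at chr7:103827929-103828178 on the minus strand, Hbb-bt at chr7:103813924-103814173 on the minus strand, Hbb-y at chr7:103853208-103853457 on the minus strand and Hba-a1 at chr11:32283422-32283671 on the plus strand.
Hbb-bs: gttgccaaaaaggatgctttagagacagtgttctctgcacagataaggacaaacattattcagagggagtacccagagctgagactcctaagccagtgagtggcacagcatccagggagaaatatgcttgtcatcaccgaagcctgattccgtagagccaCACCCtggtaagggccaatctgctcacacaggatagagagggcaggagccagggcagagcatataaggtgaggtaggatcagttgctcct
Hbb-bt: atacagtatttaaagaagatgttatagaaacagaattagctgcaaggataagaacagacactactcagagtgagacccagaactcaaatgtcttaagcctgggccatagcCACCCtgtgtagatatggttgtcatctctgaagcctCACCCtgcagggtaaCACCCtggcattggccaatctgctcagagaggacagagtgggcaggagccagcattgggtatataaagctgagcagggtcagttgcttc
Hbb-y: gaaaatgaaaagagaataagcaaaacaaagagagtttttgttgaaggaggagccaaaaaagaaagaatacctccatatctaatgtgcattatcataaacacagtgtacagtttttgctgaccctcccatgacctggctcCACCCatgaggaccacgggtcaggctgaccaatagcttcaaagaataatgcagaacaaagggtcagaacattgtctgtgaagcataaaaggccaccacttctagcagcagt
Hba-a1: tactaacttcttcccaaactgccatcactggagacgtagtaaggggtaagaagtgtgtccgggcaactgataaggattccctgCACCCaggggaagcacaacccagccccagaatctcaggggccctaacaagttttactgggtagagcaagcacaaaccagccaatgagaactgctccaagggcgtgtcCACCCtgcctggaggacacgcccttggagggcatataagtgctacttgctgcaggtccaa
The adult gene Hbb-bs has 1 CACCC, which begins 90 bases before the start, and Hbb-bt has 3, which begin 140, 104 and 89 bases before it. The embryonic gene Hbb-y has 1, at 111 bases. Hba-a1 has 2, at 167 and 60 bases, and shares an unbroken run of 247 bases with the window of Hba-a2. Searched on both strands, CACCC was found in 52.0% of 32851 such windows. GATAA, the core of the sequence bound by GATA factors, occurred once in each of these promoters and in 22.6% of all windows. A match describes the letters in a window and is no evidence of binding. Slc4a1 and Hbb-bh1 are named only.

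The bulk libraries allow tests of genes ranked by their single-cell counts, in samples whose values do not enter that ranking, although the ranking rule was chosen with earlier results of the series known. The high-globin list holds the 50 genes with the highest ratio of high-globin to low-globin level among genes with at least 200 counts, globins left out, and the low-globin list the 50 with the lowest. Values are counts scaled to the size of each library and written as CPM. In bulk, fewer cells of a type and less RNA per cell cannot be told apart. Counts in genes were 10695500, 15362200 and 12503300 in EKLF+/+ and 13879700, 13382200 and 12592600 in EKLF-/-, and estimated counts were 26909200, 28735300 and 22721800 in EKLF/GFP- and 27555600, 25378600 and 25475000 in EKLF/GFP+.

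Loss of EKLF was visible in the deleted gene itself. Klf1 stood at 362, 305 and 376 CPM in EKLF+/+ and at 58.7, 64.2 and 57.1 CPM in EKLF-/-, groups that do not overlap. It fell by 2.53 on the log2 scale (SE 0.12, adjusted p = 7.22e-06, edgeR's quasi-likelihood test, Benjamini-Hochberg adjusted, n = 3 per group). The labels and the data match on this point.

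The high-globin list moved down in EKLF-/- cells. Of its 50 genes, 33 had enough counts to be tested, and of these 17 fell, 3 rose and 13 were not called, while 10.6% of all 12753 genes tested fell and 9.72% rose. The median log2 change was -0.55 over the list and 0.02 over all genes. Summed over the list, the libraries held 10836, 11151 and 12591 CPM in EKLF+/+ and 5614, 4578 and 5201 CPM in EKLF-/-. Slc4a1 led this sum, with 4950, 5128 and 5746 CPM in EKLF+/+ and 2321, 1382 and 1928 CPM in EKLF-/-. It and Alas2 are list genes that also served to select the cells. Genes not tested include pseudogenes, and a gene could pass the filter through either group, so the counts describe the genes tested. The low-globin list had 6 lower, 5 higher and 35 not called of 46, and a median of 0.00, whereas the lowest 100 genes had 20 lower and 6 higher of 94 tested. Without EKLF-/- replicate 2 the high-globin list had 5 higher and the low-globin list 10 lower, and the latter had 3 lower without EKLF+/+ replicate 1 or EKLF-/- replicate 3.

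Over all genes, 1239 rose and 1356 fell. These totals depend on single libraries. Leaving out any 1 of the EKLF+/+ libraries, or EKLF-/- replicate 3, lowered both, to as few as 346 that rose and 575 that fell. Over all libraries left out in turn, the number of high-globin list genes that fell was between 15 and 17.

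Slc25a37, the mitochondrial iron carrier, stood at 2036, 1825 and 2155 CPM in EKLF+/+ and at 328, 219 and 293 CPM in EKLF-/-. It fell by 2.84 on the log2 scale (SE 0.17, adjusted p = 2.58e-05, edgeR's quasi-likelihood test, Benjamini-Hochberg adjusted). Every EKLF-/- library was below every EKLF+/+ library. Fn3k stood at 63.6, 37.6 and 66.5 CPM against 1.74, 0.994 and 1.08 CPM and fell by 5.44. Sowaha, Ackr1 (the Duffy antigen) and Runx1t1 fell by 5.06, 4.22 and 2.22. With Slc25a37 and Fn3k they are the 5 list genes with the largest fall among called genes whose groups do not overlap. Their separation therefore follows from the choice. Over all 12753 genes tested, groups did not overlap for 5906. Of the list's 3 genes that rose, Grap2 went from 36.8, 50.5 and 43.7 CPM to 167, 118 and 137 CPM, a log2 change of 1.69. Bpgm went from 110, 163 and 161 CPM to 315, 314 and 310 CPM, a log2 change of 1.11. For Ypel5, the last of these, the change of 0.92 lost its call without EKLF+/+ replicate 1 (adjusted p = 0.0509) and without EKLF+/+ replicate 3 (adjusted p = 0.0544) in edgeR's quasi-likelihood test, Benjamini-Hochberg adjusted. So not all genes that mark high-globin cells went down with EKLF.

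The marker of the cells, Slc4a1, stood at 4950, 5128 and 5746 CPM in EKLF+/+ and at 2321, 1382 and 1928 CPM in EKLF-/-, a log2 change of -1.49 (SE 0.19, adjusted p = 0.00174, edgeR's quasi-likelihood test, Benjamini-Hochberg adjusted). Adult globins could be read only in part. Hba-a1 and Hba-a2 had 0 or 1 counts in every EKLF+/+ and EKLF-/- library, so adult alpha-globin was not measurable in these files. Hbb-bs, listed there under an older symbol, stood at 5381, 4776 and 7656 CPM in EKLF+/+ and at 123, 213 and 124 CPM in EKLF-/-, a log2 change of -5.28 (SE 0.31, adjusted p = 2.01e-05, edgeR's quasi-likelihood test, Benjamini-Hochberg adjusted). Reads of the near-identical beta copies cannot be separated with certainty, and the labelled strain and the background of the null allele are not the same, so the size of this change is uncertain. Of the embryonic genes, Hba-x fell by 5.37 and Hbb-y by 2.16, while Hbb-bh1 had 143, 164 and 228 CPM against 268, 179 and 227 CPM and was not called.

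Lists fixed by function moved as follows, while 9.72% of all genes tested rose and 10.6% fell. Of 25 membrane and skeleton genes, 17 fell and none rose, at a median of -0.72. Of 19 erythroid factors, 14 fell and none rose. Of 24 terminal maturation genes tested, 10 fell, 2 rose and 12 were not called. Several of these calls depended on single libraries. Without EKLF+/+ replicate 3, Bnip3l, Hagh, Isg20 and Trim58 no longer passed as lower, and Fbxo7 and Map1lc3b no longer passed as higher. The calls of Fbxo7 and Map1lc3b were also lost without EKLF+/+ replicate 1 or 2. Tent5c had 117, 176 and 156 CPM against 52.7, 21.7 and 38.1 CPM and fell by 2.00. Tmcc2 had 349, 363 and 386 CPM against 97.2, 111 and 108 CPM and fell by 1.80, and Xpo7 fell by 1.10. Bcl2l1 did not pass, with 91.0, 103 and 103 CPM against 87.6, 105 and 88.3 CPM. Of 8 heme synthesis enzymes, 4 fell, 1 rose and 3 were not called. Of 13 iron genes, 3 rose, 3 fell, among them Tfrc by 2.26, and 7 were not called, at a median of -0.14. Not every list leaned toward lower values. Of 19 red cell enzymes 8 rose, 4 fell and 7 were not called, at a median of 0.28. Of 24 mitosis genes 3 rose, near the share of all genes, none fell and 21 were not called, at a median of 0.03. A gene that did not pass may still differ, since 3 libraries per group detect only changes that are large beside the spread.

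Among the low-globin list, Hdac7 fell by 1.21, Kit by 0.93 and Cdk6 by 1.31, the last not past the threshold without EKLF+/+ replicate 2 (adjusted p = 0.0544, edgeR's quasi-likelihood test, Benjamini-Hochberg adjusted). Kit stood at 194, 213 and 171 CPM against 107, 86.4 and 110 CPM. C2cd4a rose by 2.04 and Hesx1, a homeobox gene, by 1.29. Of 11 early erythroid genes, 3 fell and 8 were not called. The 6 of 46 low-globin list genes that fell are near the 10.6% of all genes tested that fell.

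Some markers of other cell types also moved in this comparison, in which 9.72% of all genes tested rose and 10.6% fell. Of 14 monocyte and neutrophil markers 8 rose and none fell, and their sum, led by Mpo, was 6083, 7657 and 5960 CPM in EKLF+/+ and 8195, 16009 and 10007 CPM in EKLF-/-. Of 19 macrophage markers 3 rose and 3 fell, not far from the shares of all genes, at a median of 0.03. Their sums, led by Lyz2, were 805, 1046 and 1026 CPM against 1095, 1865 and 1272 CPM. Of 10 endothelial and mesenchymal markers 7 fell, with sums, led by Pecam1, of 225, 270 and 182 CPM against 128, 103 and 108 CPM. Hepatoblast markers, led by Afp, had none of 10 called at an adjusted p under 0.05, with sums of 1439, 1253 and 2012 CPM against 1654, 1955 and 1634 CPM. Their part in the result was not tested.

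The EKLF reporter sorted in the other direction. In EKLF/GFP+ cells, 33 of the 46 high-globin list genes tested rose, 1 fell (2 without EKLF/GFP+ replicate 1 or EKLF/GFP- replicate 3) and 12 were not called, while 18.9% of all 14238 genes tested rose and 25.8% fell. The median log2 change was 1.12 over the list and -0.01 over all genes. Predicted genes and pseudogenes make up most of those not called. Without predicted genes and pseudogenes, an alternative chosen after seeing the data, 32 of 34 genes rose and 1 fell. The low-globin list had 14 higher and 9 lower of 43, at a median of 0.11.

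Klf1 stood at 34.6, 45.7 and 28.6 CPM in EKLF/GFP- and at 101, 90.2 and 87.3 CPM in EKLF/GFP+, a log2 change of 1.35 (SE 0.16, adjusted p = 3.1e-04, edgeR's quasi-likelihood test, Benjamini-Hochberg adjusted, n = 3 per group). Tent5c had 37.4, 33.0 and 21.0 CPM against 115, 90.6 and 152 CPM and rose by 1.96. Bpgm had 28.0, 24.0 and 27.3 CPM against 82.2, 84.9 and 139 CPM and rose by 1.95. Ypel4, Gm867 and Fn3k rose by 1.82, 1.79 and 1.71. For each of these genes, every EKLF/GFP+ library was above every EKLF/GFP- library. Those after Klf1 are the 5 list genes with the largest rise among called genes whose groups do not overlap. Their separation therefore follows from the choice. Over all 14238 genes tested, groups did not overlap for 7933. The gene that fell was Ncf4, a subunit of the phagocyte oxidase, with 72.0, 50.5 and 82.4 CPM against 6.45, 12.4 and 11.5 CPM.

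Slc4a1 had 646, 754 and 500 CPM against 1415, 1572 and 1666 CPM and rose by 1.29. Adult globins differed less than embryonic ones in size. Hbb-bs had 1477, 1974 and 1364 CPM in EKLF/GFP- and 2470, 3404 and 2861 CPM in EKLF/GFP+, and rose by 0.86 (SE 0.17, adjusted p = 0.00384, edgeR's quasi-likelihood test, Benjamini-Hochberg adjusted). Hba-a1 rose by 0.62, a call lost without EKLF/GFP- replicate 1 (adjusted p = 0.0735) or replicate 3 (adjusted p = 0.0546) in edgeR's quasi-likelihood test, Benjamini-Hochberg adjusted. Hbb-y had 1002, 593 and 985 CPM against 2117, 3417 and 3398 CPM and rose by 1.79, Hba-x by 2.18 and Hbb-bh1 by 2.45. The difference between adult and embryonic changes was not tested.

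By function, 24 of 25 membrane and skeleton genes, all 8 heme synthesis enzymes, 21 of 24 terminal maturation genes and 17 of 19 erythroid factors rose, and none of these fell. Over all genes tested, 18.9% rose and 25.8% fell. Of 24 mitosis genes 18 rose and none fell, and of 24 S phase genes 19 rose and 1 fell. Other lists were mixed. Of 14 nuclear and chromatin genes 2 rose and 6 fell, of 6 cyclin D genes and kinases 1 rose and 3 fell, and of 10 cell cycle inhibitors 4 rose and 3 fell. Of 11 early erythroid genes 7 fell and 2 rose. Cd34 fell by 3.85 and Kit, with 191, 166 and 156 CPM against 140, 109 and 110 CPM, by 0.52. In the low-globin list Ptpn7, Fkbp11, Myb, Cdk6 and Cd320 fell by 1.33, 1.13, 0.91, 0.87 and 0.60, while Hesx1, Sh2d4a, Olfr1388, C2cd4a and Prelid2 rose by 1.52, 1.43, 1.21, 1.205 and 0.90, and the call of C2cd4a was lost when any 1 of several libraries was left out.

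Again other cell types moved. All 14 monocyte and neutrophil markers fell, and their sum, led by Mpo, was 4771, 5040 and 5484 CPM in EKLF/GFP- and 506, 692 and 815 CPM in EKLF/GFP+. Of 19 macrophage markers 6 fell, none rose and 13 were not called, a share near the 25.8% of all genes, at a median of 0.13, with sums, led by Lyz2, of 1017, 896 and 1177 CPM against 278, 570 and 741 CPM. All 6 lymphoid markers tested fell, 5 of 9 endothelial and mesenchymal markers fell, and of 9 megakaryocyte markers, led by Itga2b, 8 rose and 1 fell. Their part in the result was not tested, nor was that of the RNA kit, which cannot be told apart from the fraction.

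**Figure D3:**
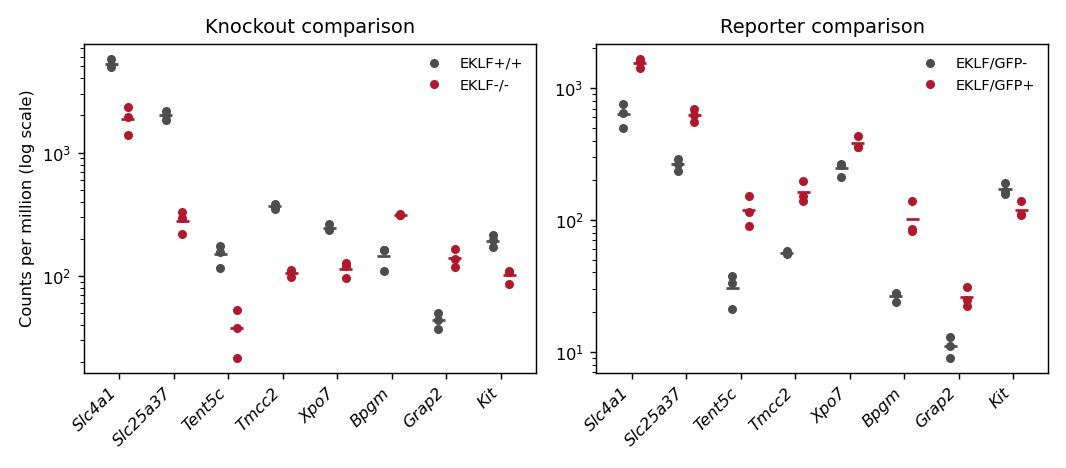
CPM (log scale) of 8 genes in each of 3 libraries per group, EKLF+/+ and EKLF-/- on the left and EKLF/GFP- and EKLF/GFP+ on the right. Points are libraries and bars are group means. Slc4a1, Slc25a37, Tent5c, Tmcc2 and Xpo7 were lower in EKLF-/- and higher in EKLF/GFP+, whereas Bpgm and Grap2 were higher in both EKLF-/- and EKLF/GFP+ and Kit was lower in both.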

How the data were processed

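High-globin cells and the gene lists were chosen with earlier results of these data known. Whole-number counts per gene of the EKLF+/+ and EKLF-/- libraries were made by the authors with STAR and HTSeq before they were deposited. In the deposited files, the closing lines that tally reads outside genes hold 67.2% to 72.7% of all reads, of which reads not uniquely aligned make up 24.8% to 29.8% of all. The first of these files repeats the other 5 libraries in further columns, which were not used. Estimated counts per transcript of the GFP libraries were made by the authors with Salmon and deposited without normalization. They were summed to genes through GENCODE vM21 and rounded to whole numbers for the test, and 115898 of 116546 transcripts were joined. Estimated counts of molecules per cell and gene were made by the authors with Alevin as deposited, and no cells were removed beyond 3 with fewer than 200 genes. Upstream programs also include DESeq2 and Seurat, all without stated versions.

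Older symbols in the EKLF+/+ and EKLF-/- files were translated where RefSeq lists a unique synonym, which changed 2165 of 23337. Genes that reached 10 counts in 3 or more libraries of a comparison were normalized by TMM and tested in edgeR, with a Benjamini-Hochberg threshold of 0.05. The fit was first tried on data with planted differences. Genes are named in the text when they belong to a fixed functional list, define the cells, or stand at the ends of the ranking by ratio. In bulk, up to 5 genes of each ranked list with the largest change in each direction were named as well. These were picked from the bulk results, among called genes whose groups do not overlap. Scrublet marked 0 of 3093 cells, so it says nothing about doublets, and an alternative without the 5% highest scores was added after seeing the data.

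Alternatives tried were 1000 genes per cell, an erythroid sum of 20, a C1q sum under 5, a higher globin share, cells weighted equally, globins kept in the total, thinning to 5000 counts, lists of 100 genes, DESeq2's Wald test, DESeq2 size factors, no filter beyond 1 count, globin genes left out before normalization, a replicate block and each library left out. Programs were R 4.3.3, edgeR 4.0.16, DESeq2 1.42.0, Python 3.11.15, numpy 2.4.6, scipy 1.17.1, pandas 2.3.3, scanpy 1.11.5 and matplotlib 3.10.9.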

Additional observations from a re-analysis of the deposited data

How the results depend on the processing

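With at least 1000 genes per cell the embryonic share of beta-like counts was 1.46%, the S phase ratio 1.10 and the mitosis ratio 2.33. With an erythroid sum of at least 20 they were 0.655%, 0.952 and 2.30, and with a C1q sum under 5 the share was 1.94%. Cells above the 67th percentile of globin share numbered 192, with a median share of 76.9%, an embryonic share of 0.123%, an S phase ratio of 0.568 and a mitosis ratio of 2.61. The median embryonic share over cells was 0.0516%, and without the embryonic cells, an alternative chosen after seeing the data, the pooled share was 0.167%. With cells weighted equally the S phase and mitosis ratios were 0.765 and 2.28, with globins kept in the total 0.466 and 1.04, and after thinning S phase had 1.01. Leaving out the highest doublet scores, also chosen after seeing the data, changed none of these beyond the limit set for a move. With lists of 100 genes, EKLF-/- against EKLF+/+ had 7 high-globin list genes higher and 39 lower and 20 of the low-globin list lower and 6 higher, and EKLF/GFP+ against EKLF/GFP- had 78 of the high-globin and 26 of the low-globin list higher. With each library left out in turn, EKLF-/- against EKLF+/+ had 346 to 1730 genes higher and 575 to 1889 lower, 2 to 5 of the high-globin list higher and 3 to 10 of the low-globin list lower, and the high-globin list of EKLF/GFP+ against EKLF/GFP- had 1 to 2 lower. A replicate block left every direction as it was and made Hagh, Map1lc3b and Myb weaker in EKLF-/- against EKLF+/+, although sample numbers do not pair the libraries. Over all alternatives, 700 checks of single genes in EKLF-/- against EKLF+/+ stayed the same, 47 became weaker and 8 stronger. For EKLF/GFP+ against EKLF/GFP- these numbers were 732, 8 and 1. No call of a single gene was reversed, although some changes that were not called, such as that of Alox15, turned in sign. Limits are 1 single-cell library without replicates, a group defined by its own globin counts, ambient RNA that was not removed, doublets that Scrublet could not mark, uncertain counts of near-identical globin copies and pseudogenes, adult alpha-globin not measurable in EKLF+/+ and EKLF-/- files, strain labels that differ from the methods, an RNA kit that follows the GFP fraction, and bulk samples of mixed cells in which cell number and RNA per cell cannot be told apart.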
